A study of Mus musculus with 24 samples.

Results

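Serpina3n, Aspg, S1pr3, Amigo2, Fbln5, Srgn, Fkbp5 and Ggta1 are 8 mouse genes used as markers of reactive astrocytes. They were chosen by name from the markers in use for these states, with earlier results of these data known. They were found by symbol among the 24411 genes in the expression tables. Of these, 3 belong to the pan-reactive markers (Serpina3n, Aspg, S1pr3) and the others to the neurotoxic, or A1, markers (Amigo2, Fbln5, Srgn, Fkbp5, Ggta1).

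Reactive astrocytes are astrocytes that have changed shape and gene expression after injury, infection or disease. Pan-reactive markers are induced by many kinds of insult, whereas the neurotoxic markers were linked to a state that follows inflammatory signals from microglia. Microglia are the resident macrophages of the brain, and lipopolysaccharide (LPS), a component of bacterial outer membranes, activates them through Toll-like receptor signalling.

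RNA was sequenced from primary astrocytes and microglia grown in serum-free media, which differed between the cell types. Donors were wild-type (WT) mice and mice carrying the *SOD1* G93A transgene. The transgene, a mutant human gene under its own promoter, causes motor neuron disease, and the mice are used as a model of amyotrophic lateral sclerosis. Astrocytes came from the cortex and were purified by immunopanning. Before positive selection, oligodendrocyte lineage, endothelial and microglial cells were depleted by negative panning. The methods give postnatal day 5 for WT donors and no age for the *SOD1* G93A donors. Microglia were sorted from whole brain of mice at postnatal days 7 to 10. Control cultures received PBS and are called quiescent. Activated astrocytes received 3 agents in 1 mixture: the cytokine IL-1α (3 ng/ml), the cytokine TNFα (30 ng/ml) and the complement protein C1q (400 ng/ml). LPS microglia received LPS (50 ng/ml). Each of 7 conditions had 3 libraries: WT and *SOD1* G93A quiescent astrocytes, WT and *SOD1* G93A activated astrocytes, WT quiescent microglia, and WT and *SOD1* G93A LPS microglia. The 3 libraries of *SOD1* G93A quiescent microglia were not analysed here. The labels do not say whether replicates came from separate cultures or animals, so the p-values measure the spread between these libraries.

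The 21 libraries held 2016139 to 11570122 reads assigned to genes, with a median of 5098168. The shallowest was WT quiescent astrocytes replicate 1. Levels below are in RPM (reads-per-million) on 1 scale over all 21 libraries; because the tables were normalised separately, this scale was rebuilt from the reads recovered from them. Astrocyte markers summed to 5904 RPM on average in WT quiescent astrocytes against 1049 in WT quiescent microglia, with Slc1a3, a glutamate transporter, the largest part of the sum in astrocytes at 1976. Most of the 1049 was Glul, glutamine synthetase, which stood higher in WT quiescent microglia, at 891, than in WT quiescent astrocytes, at 682. Microglia markers summed to 20783 in WT quiescent microglia and to 281 in WT quiescent astrocytes, with Laptm5, a lysosomal protein, the largest part of both sums, at 3741 and 44.9. Endothelial markers summed to 10.6 in WT quiescent astrocytes, 122 in WT activated astrocytes, 88.5 in WT quiescent microglia and 68.6 in WT LPS microglia. The largest part was the VEGF receptor Flt1, at 7.34, 118 and 63.4 in the first 3 of these groups. In the last it was Kdr, another VEGF receptor, at 41.4. Of the 11 endothelial markers, 5 to 7 had 0 reads in WT quiescent astrocyte libraries and 3 or 4 in WT activated ones. In WT microglia 4 to 6 had 0 reads in quiescent and 5 or 6 in LPS libraries. Cldn5 and Tie1 had 0 reads in every library. Oligodendrocyte lineage markers stood at 2486 in WT quiescent astrocytes, with the transcription factor Olig1 as the largest part at 1489, and at 918 after activation. They stood at 1545 in WT quiescent microglia and at 171 in WT LPS microglia, of which the proteoglycan Cspg4 made up 1478 and 87.5. In such cultures fewer cells of a type and less RNA per cell cannot be told apart. In 4 groups 1 library stood apart from the other 2, by a rule set with the values known: its chi-square per degree of freedom against both was over 2 times that between them. These were WT LPS microglia replicate 1 (12.8 and 14, against 1.63), *SOD1* G93A LPS microglia replicate 3 (15.7 and 20.3, against 2.32), WT quiescent astrocytes replicate 3 (6.50 and 8.97, against 2.03) and *SOD1* G93A quiescent astrocytes replicate 1 (6.47 and 9.87, against 2.78). Without any 1 of these 4 libraries, the same genes among the 8 passed in each comparison of 2 groups. Whether the libraries of 2 groups overlap is given below as a description and was not counted over all genes.

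**Figure D1:**
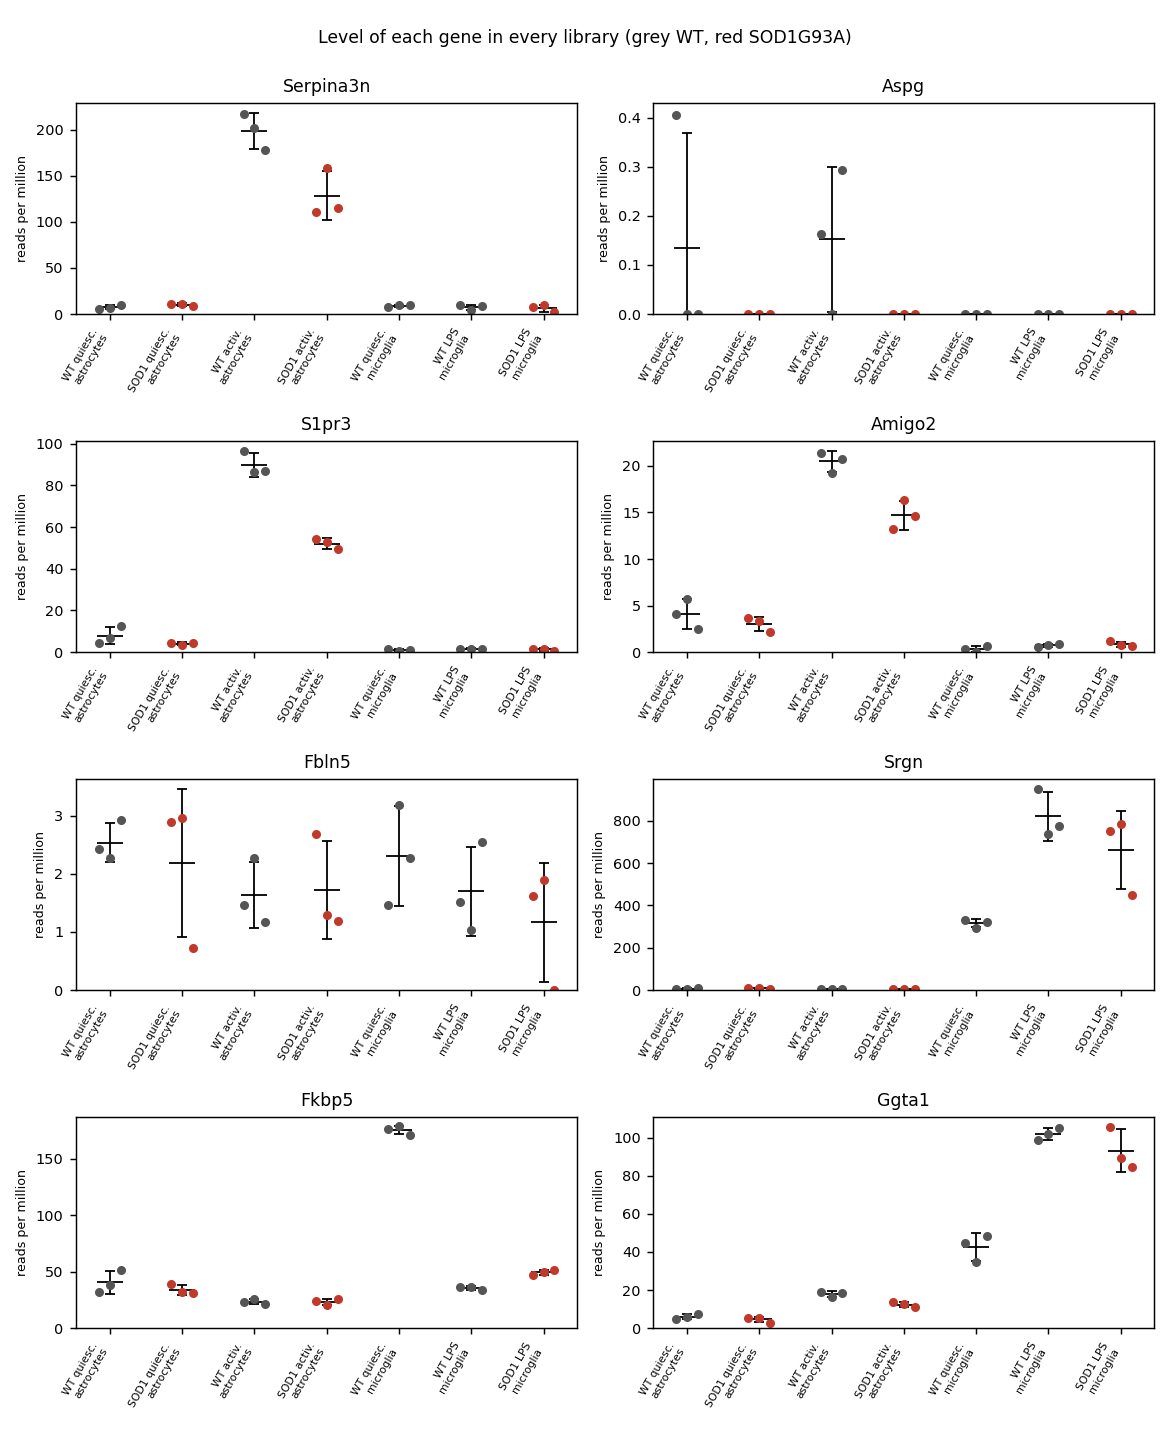
Level of each of the 8 genes in every library, in RPM on a linear axis that starts at 0, for 7 conditions of 3 libraries each; points are libraries (grey WT, red *SOD1* G93A), and the dash and bar are the mean and SD. Serpina3n stands at 178 to 217 in WT activated astrocytes and at 5.67 to 10.3 in WT quiescent astrocytes, and Srgn at 295 or more only in microglia.

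Serpina3n encodes a secreted serine protease inhibitor of the acute phase response. Its level in WT quiescent astrocytes was 5.67, 6.33 and 10.3 RPM in replicates 1 to 3, and in WT activated astrocytes 217, 202 and 178. In *SOD1* G93A astrocytes it was 10.8, 10.9 and 8.44 when quiescent and 110, 159 and 116 when activated. Both activated groups therefore stood above every quiescent astrocyte library, and the WT activated libraries stood above the *SOD1* G93A activated ones. Microglia held low levels, with 8.02, 9.53 and 9.97 in WT quiescent, 9.43, 4.15 and 8.74 in WT LPS and 7.15, 9.97 and 2.44 in *SOD1* G93A LPS microglia. These 3 groups overlapped each other and the quiescent astrocytes. Of the 50-base stretches of its exons, 6.9% also occur in other genes, most often in Serpina3e-ps (2.68%), so a small part of its reads is uncertain.

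Serpina3n lies on chr12:104406729-104414329, plus strand, in GRCm38. The 250 bases before its RefSeq start (GRCm38.p6, chr12:104406458-104406707, plus strand) are shown because it was the only one of the genes that passed the test in WT astrocyte activation whose promoter held a searched motif. Capitals mark GGNNNTTCC, the NF-kB motif, 170 bases before the start, and ACANNNTGT, the glucocorticoid receptor motif, 76 bases before it.
Serpina3n: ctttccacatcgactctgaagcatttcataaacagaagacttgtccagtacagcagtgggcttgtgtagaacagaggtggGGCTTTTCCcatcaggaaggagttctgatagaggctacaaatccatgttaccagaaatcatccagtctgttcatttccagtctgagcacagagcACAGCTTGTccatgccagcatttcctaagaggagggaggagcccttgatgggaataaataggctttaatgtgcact
Of 32851 RefSeq promoters of this length, 15.7% held the first motif and 5.84% the other on either strand. The search also covered TTCNNNGAA (STAT, 7.02% of promoters), GAAANNGAA (ISRE, 7.13%) and TGANTCA (AP-1, 6.75%). A match is only a description of these letters.

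Aspg encodes an asparaginase. It had 1 read in WT quiescent astrocytes replicate 1, and 1, 0 and 2 reads in WT activated astrocytes replicates 1 to 3. All other libraries had 0 reads, including every *SOD1* G93A library and every microglia library. Over the WT activated group this was 0.171 RPM, taken here over the group's total reads and not on the common scale. On the same basis, with 3 counts as the floor, a count of 0 over the *SOD1* G93A activated group allows up to 0.307. No difference was detectable at this depth, Aspg entered no test, and no fold is given.

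S1pr3 encodes a receptor for sphingosine 1-phosphate. Its level was 4.46, 6.79 and 12.3 RPM in WT quiescent astrocytes and 96.7, 86.2 and 86.8 in WT activated astrocytes. In *SOD1* G93A astrocytes it was 4.45, 3.18 and 4.58 when quiescent and 54.2, 52.6 and 49.3 when activated. Quiescent and activated libraries did not overlap in either genotype, and neither did the activated libraries of the 2 genotypes. Microglia were at 0.454 to 1.69 RPM, from 1 to 12 reads a library.

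Amigo2 encodes a leucine-rich repeat adhesion protein. Its level was 4.05, 5.65 and 2.46 RPM in WT quiescent astrocytes and 21.4, 19.2 and 20.8 in WT activated astrocytes. In *SOD1* G93A astrocytes it was 3.67, 3.29 and 2.17 when quiescent and 13.2, 16.3 and 14.6 when activated. The activated groups did not overlap the quiescent groups or each other. Microglia held 0 to 6 reads a library.

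Fbln5 encodes fibulin-5, an extracellular protein of elastic fibres. Its level was 2.43, 2.26 and 2.92 RPM in WT quiescent astrocytes and 1.46, 2.27 and 1.17 in WT activated astrocytes. Across all 7 conditions the means ran from 1.17 to 2.54, and every neighbouring pair in that order overlapped.

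Srgn encodes serglycin, a proteoglycan of secretory granules in blood-derived cells. Its level in WT quiescent microglia was 332, 295 and 319 RPM, in WT LPS microglia 951, 736 and 775, and in *SOD1* G93A LPS microglia 751, 783 and 450. Both LPS groups stood above the quiescent microglia and overlapped each other. The 12 astrocyte libraries held 3.65 to 10.1. Within WT quiescent astrocytes the levels of 3.65, 6.33 and 8.02 went with summed microglia markers of 190, 284 and 367 RPM, and in *SOD1* G93A quiescent astrocytes 10.1, 9.66 and 4.82 went with 445, 455 and 299. After activation 7.15, 7.04 and 4.83 went with 239, 389 and 216 in WT, and 7.39, 5.15 and 5.92 with 304, 211 and 229 in *SOD1* G93A. Negative panning was used to deplete microglia before astrocyte culture. The part of microglial RNA in the astrocyte values was not tested.

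Fkbp5 encodes a co-chaperone of the glucocorticoid receptor and is itself induced by glucocorticoids. Its level in WT quiescent microglia was 176, 179 and 171 RPM, in WT LPS microglia 36.7, 36.3 and 33.5, and in *SOD1* G93A LPS microglia 47.3, 49.8 and 51.3. These 3 groups did not overlap. In astrocytes it was 31.6, 38.2 and 51.5 in WT quiescent and 23.4, 25.8 and 21.5 in WT activated libraries, with every quiescent library above every activated one. The *SOD1* G93A astrocytes held 38.8, 31.6 and 31.3 when quiescent and 24.2, 20.6 and 25.6 when activated.

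Ggta1 encodes an alpha-galactosyltransferase that makes the alpha-gal epitope. Its level was 4.86, 5.88 and 7.57 RPM in WT quiescent astrocytes and 19.2, 16.5 and 18.4 in WT activated astrocytes. In *SOD1* G93A astrocytes it was 5.59, 5.27 and 2.89 when quiescent and 13.7, 12.5 and 11 when activated. Microglia held more than astrocytes, with 44.7, 34.5 and 48.5 in WT quiescent, 99.0, 102 and 105 in WT LPS and 106, 89.3 and 84.6 in *SOD1* G93A LPS microglia. The 2 LPS groups overlapped, and both stood above the quiescent microglia.

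Levels of the 8 genes were compared with each other only per kilobase of exon. In WT activated astrocytes Serpina3n was the most abundant of the 8, at 96.4 ± 9.51 RPM per kilobase (SD, n = 3), followed by S1pr3 at 20.1 ± 1.31 and Amigo2 at 6.47 ± 0.364. In WT quiescent microglia the order was Srgn at 144 ± 8.58, Fkbp5 at 18.5 ± 0.397 and Ggta1 at 9.04 ± 1.54.

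The first comparison asked how WT astrocytes respond to IL-1α, TNFα and C1q. A gene passed the test when its adjusted p from limma was below 0.001 and its change exceeded 2-fold, measured on log2(normalised count + 1), a scale that understates the change of low genes. Of the 8 genes, 7 passed the filter on low values and 4 rose; 11.5% of the 12336 genes tested passed, 6% higher and 5.54% lower. Serpina3n rose by 4.79 ± 0.195 on the log2 scale (SE; 27.6-fold; adjusted p = 2.07e-08) and S1pr3 by 3.64 ± 0.281 (12.5-fold; adjusted p = 1.92e-06). Amigo2 rose by 2.39 ± 0.257 (adjusted p = 2.42e-05) and Ggta1 by 1.59 ± 0.191 (adjusted p = 5.91e-05). Fkbp5 had a log2 change of -0.72 ± 0.170 and an adjusted p of 0.00635, which did not pass, and Fbln5 and Srgn had -0.59 ± 0.363 and 0.16 ± 0.300. With 3 against 3 libraries an exact permutation test cannot go below p = 0.1, so single genes were tested only within the fit over all genes.

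The rest of both marker sets gave context for these values. Of the 13 pan-reactive genes 11 were tested (Aspg and Hspb1 were not) and 9 rose, Serpina3n and S1pr3 among them. The median log2 change was 4.26 against 0.01 over all genes tested. Steap4, a metalloreductase, rose by 7.18 ± 0.230, Lcn2, an iron-siderophore carrier, by 6.70 ± 0.143, Timp1, a metalloproteinase inhibitor, by 5.94 ± 0.165, and Cp, ceruloplasmin, by 5.14 ± 0.131. Osmr rose by 4.26 ± 0.216, Cxcl10 by 3.67 ± 0.158 and Cd44 by 2.29 ± 0.130, while Gfap (1.08 ± 0.222, adjusted p = 0.00265) and Vim (0.28 ± 0.143) did not pass. Of the 12 neurotoxic genes 10 were tested (Iigp1 and Ugt1a1 were not) and 4 rose, Amigo2 and Ggta1 among them. The median was 1.11. Gbp2, an interferon-induced GTPase, rose by 4.82 ± 0.15 and Serping1, the C1 inhibitor, by 3.97 ± 0.620, whereas Psmb8 (1.85 ± 0.354, adjusted p = 0.00166), H2-T23 (0.64 ± 0.396) and H2-D1 (0.50 ± 0.159) did not pass. Of the 12 A2 genes, a set tied to ischaemia, 7 of 11 tested rose, with a median of 2.16; Tgm1 rose by 6.43 ± 0.556, Ptx3 by 6.08 ± 0.235 and Tm4sf1 by 5.10 ± 0.180.

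Other cell type markers moved in the same comparison, and their part in the values above was not tested. Of 13 astrocyte markers tested 3 fell, with log2 changes of -1.94 for Aldoc, -1.78 for Fgfr3 and -1.15 for Hepacam, and 0 of the 13 were above 0 (median -0.80, against 0.01 over all genes). Of 7 oligodendrocyte lineage markers 3 fell, with a log2 change of -1.74 for Olig1. None of 15 microglia markers passed, and their summed level was 281 RPM before and 282 after activation. Flt1 was the 1 endothelial marker tested and rose by 4.02. Of 5 pericyte and fibroblast markers tested 2 rose and 1 fell (median 0.53). Of 8 neuron markers 3 rose and 1, Map2, fell; 7 were above 0 (median 1.03), while their summed level, mostly Map2, went from 747 to 376 RPM.

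Genes related to the 8 by function were described by the same test. Of 7 sphingosine 1-phosphate genes tested, S1pr3 and S1pr2 (1.21 ± 0.137) rose. Of 7 galactosyltransferases, Ggta1, B4galt5 (1.51 ± 0.118) and B4galt1 (1.30 ± 0.123) rose. Of 13 fibulin and elastic fibre genes 2 rose and 3 fell, among them Loxl1 (2.26 ± 0.168), Fbln7 (-1.61 ± 0.264) and Fbln1 (-1.42 ± 0.186). Of 11 proteoglycan core proteins, Sdc4 rose by 2.38 ± 0.099, and Sdc3 and Ptprz1 had -2.0 ± 0.090 and -1.5 ± 0.107. Of 3 asparagine metabolism genes, Asrgl1 had -2.52 ± 0.085 and passed. None of 10 glucocorticoid receptor and HSP90 co-chaperone genes passed, and of 10 glucocorticoid-responsive genes Errfi1 rose (1.41 ± 0.124) and Tsc22d3 fell (-1.12 ± 0.182). Amigo2 was the 1 of 3 AMIGO genes that rose, and Serpina3n was the 1 gene tested of the Serpina3 cluster.

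*SOD1* G93A astrocytes were tested for the same response in a joint fit of the 12 astrocyte libraries. Again 4 of the 7 genes tested rose, where 13.3% of genes passed, 6.74% higher and 6.59% lower. Serpina3n rose by 3.67 ± 0.190 on the log2 scale, S1pr3 by 3.66 ± 0.248, Amigo2 by 2.26 ± 0.255 and Ggta1 by 1.47 ± 0.233. Fkbp5 had -0.50 ± 0.160 and did not pass (adjusted p = 0.0175). Of the 15 microglia markers tested 0 were above 0, with a median of -0.67. Of 13 astrocyte markers 3 fell (median -0.45), of 7 oligodendrocyte lineage markers 2 fell, and of 4 pericyte and fibroblast markers 3 rose (median 2.60). Of 8 neuron markers 3 rose and 1 fell, and Flt1, the 1 endothelial marker tested, rose by 4.41. Their part was not tested.

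The genotype difference in this response was tested as an interaction, in which none of the 7 genes passed and 0% of genes did. Serpina3n had a log2 difference of -1.12 ± 0.269, *SOD1* G93A minus WT, with an adjusted p of 0.126 (0.00257 to 0.396 over the alternative settings). The lowest was without WT quiescent astrocytes replicate 3, a library that stood apart, where the difference was -1.38 and the adjusted p was under 0.05 but above 0.001. For the others the difference lay between -0.48 and 0.42. By limma 1018 genes had an unadjusted p under 0.05 and 0 passed, while edgeR passed 4 genes and DESeq2 22, none of them among the 8. The limma count was 6 without WT quiescent astrocytes replicate 1 and 1 without replicate 3. No microglia or astrocyte marker passed in this comparison. Of 15 microglia markers 0 were above 0, with a median of -0.73 against 0.0023 over all genes. Of 13 astrocyte markers 10 were above 0 (median 0.25). Microglia markers summed to 190, 284 and 367 RPM in WT and 445, 455 and 299 in *SOD1* G93A quiescent libraries. In activated libraries the sums were 239, 389 and 216 in WT and 304, 211 and 229 in *SOD1* G93A. The part of these markers was not tested.

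Activated astrocytes of both genotypes were then compared directly, where 0.645% of genes passed, 63 higher and 15 lower in *SOD1* G93A, and none of the 6 genes tested did. S1pr3 was lower in *SOD1* G93A (log2 difference -0.77 ± 0.079, adjusted p = 1.06e-06), as was Serpina3n (-0.64 ± 0.102, adjusted p = 0.000342), and both changes were under 2-fold. Ggta1 (-0.52 ± 0.144, adjusted p = 0.0294) and Amigo2 (-0.46 ± 0.133, adjusted p = 0.0378) were past neither limit. Fkbp5 and Srgn had differences of 0.0047 ± 0.124 and -0.02 ± 0.234. In the marker sets, Cxcl10 (1.71 ± 0.082), Iigp1 (3.15 ± 0.277) and H2-T23 (1.39 ± 0.227) were higher in *SOD1* G93A, as was Asns (1.20 ± 0.088), asparagine synthetase. Cxcl10 was the 1 of 11 pan-reactive genes tested above 0 (median -0.20), and 7 of 10 neurotoxic genes were above 0 (median 0.16, against -0.0038 over all genes). Of the neuron markers 1 of 8 was above 0 (median -0.65), with sums of 348, 382 and 400 RPM in WT and 348, 358 and 373 in *SOD1* G93A activated libraries, mostly Map2. Of the microglia markers 3 of 15 were above 0 (median -0.12), and of the astrocyte markers 10 of 12 (median 0.17). Of the oligodendrocyte lineage markers 5 of 7 were above 0 (median 0.027), of the pericyte and fibroblast markers 2 of 5 (median -0.25), and Flt1 had -0.30. The part of these markers was not tested.

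Quiescent astrocytes of both genotypes did not separate by this test. Of the 7 genes tested 0 passed, and 0% of 12271 genes did by limma; 1068 genes had an unadjusted p under 0.05, edgeR passed 0 genes and DESeq2 7. S1pr3 had a log2 difference of -0.80 ± 0.346 (95% interval -1.57 to -0.03) and Serpina3n 0.48 ± 0.244 (-0.07 to 1.02). Leaving out 1 library at a time they ran from -1.14 to -0.42 and from 0.31 to 0.73; without WT quiescent astrocytes replicate 3 they were -0.42 and 0.73. All 15 microglia markers tested were above 0, with a median of 0.57 against 0.0021 over all genes. Of 13 astrocyte markers 3 were above 0 (median -0.17), and of 7 oligodendrocyte lineage markers 3 (median -0.12). Of 3 pericyte and fibroblast markers 0 were above 0 (median -0.54), and of 7 neuron markers 4 (median 0.11). The 1 endothelial marker tested had -0.70. The part of all these markers in these values was not tested.

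In WT microglia the effect of LPS was tested on the 4 genes that passed the filter on low values. Srgn rose by 1.43 ± 0.085 on the log2 scale (2.7-fold; adjusted p = 1.86e-07) and Ggta1 by 1.33 ± 0.118 (2.52-fold; adjusted p = 4.29e-06), and Fkbp5 fell by 2.23 ± 0.096 (adjusted p = 1.59e-08). So 3 of 4 passed, where 20.8% of genes did, 10.2% higher and 10.6% lower. Serpina3n had -0.31 ± 0.286. Fkbp5 was the 1 of 10 glucocorticoid receptor and co-chaperone genes that passed. Of 9 glucocorticoid-responsive genes tested 2 rose and 2 fell (median 0.24). Of 17 microglia markers 11 fell, with log2 changes of -4.62 for Tmem119, -3.81 for P2ry12 and -3.56 for Trem2. Summed, they stood at 20964, 20992 and 20393 RPM before and at 8371, 7641 and 7563 after LPS. Of 11 astrocyte markers 2 rose and 1 fell, of 3 endothelial markers 2 rose and 1 fell, of 5 oligodendrocyte lineage markers 1 fell, and of 5 pericyte and fibroblast markers 1 rose. The part of all these markers in the changes of Srgn, Ggta1 and Fkbp5 was not tested. Of the 8 neurotoxic genes tested 7 rose, Srgn and Ggta1 among them, and 1, Fkbp5, fell (median 2.07). Among them Gbp2 (6.21 ± 0.094), Iigp1 (4.93 ± 0.423) and H2-D1 (2.27 ± 0.074) changed most. Of 10 pan-reactive genes tested 4 rose (median 0.43), and of 10 A2 genes 3 rose and 1 fell (median 0.84).

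*SOD1* G93A LPS microglia were compared with WT LPS microglia, and none of the 4 genes tested passed, where 0% of 10679 genes did by limma. There were 930 genes with an unadjusted p under 0.05, edgeR passed 0 and DESeq2 3. Fkbp5 had a log2 difference of 0.47 ± 0.118 with an adjusted p of 0.571. Its libraries did not overlap, which for 3 against 3 libraries is p = 0.1 in an exact permutation test. Srgn had -0.35 ± 0.175; its libraries did not overlap on the scale of that table but did in RPM, and its value was -0.15 without *SOD1* G93A LPS microglia replicate 3. Of 8 neurotoxic genes 1 was above 0 (median -0.30), of 10 pan-reactive genes 2 (median -0.22) and of 11 A2 genes 3 (median -0.32). Of 17 microglia markers 14 were above 0 (median 0.23, against 0.0078 over all genes). Of 11 astrocyte markers 4 were above 0 (median -0.091), and of 5 oligodendrocyte lineage markers 2 (median -0.10). The latter summed to 229, 255 and 316 RPM in *SOD1* G93A and 176, 166 and 171 in WT LPS libraries. Above 0 were also 1 of 3 endothelial markers (median -0.15), 2 of 4 pericyte and fibroblast markers (median -0.32) and the 1 neuron marker tested (0.23). The microglia markers summed to 8640, 9124 and 10149 RPM in *SOD1* G93A LPS microglia. The part of all these cell type markers was not tested.

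**Figure D2:**
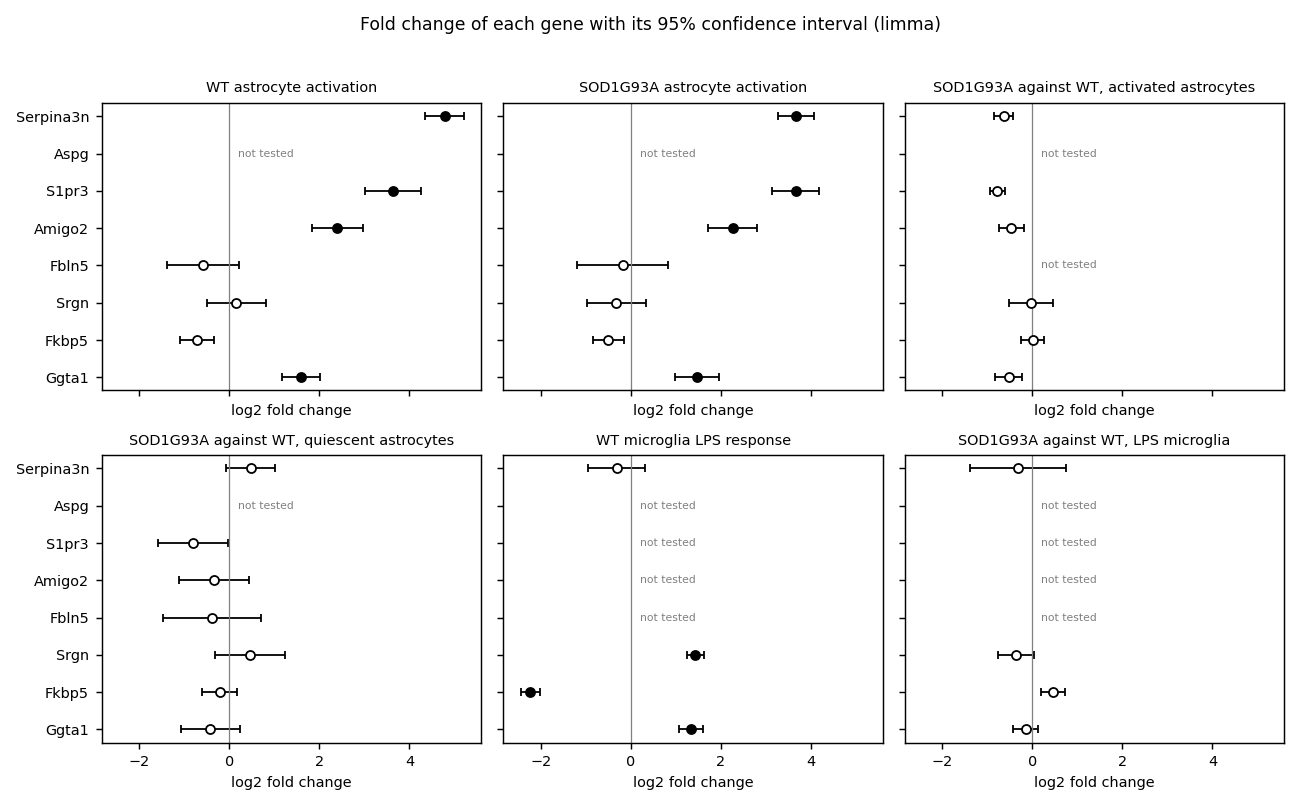
Log2 fold change (horizontal axis) of each gene in 6 comparisons, with its 95% confidence interval from limma over 3 against 3 libraries or the 12 astrocyte libraries; filled points passed the test, and genes too low to test are named as such. Serpina3n stands at 4.79 and 3.67 in WT and *SOD1* G93A astrocyte activation, and Fkbp5 at -2.23 in the LPS response of WT microglia.

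WT quiescent microglia were set against WT quiescent astrocytes in a joint fit of the 12 WT libraries, in which 5 of the 7 genes tested passed and 47.6% of genes did. Srgn was higher in microglia by 5.75 ± 0.228 on the log2 scale (53.7-fold), Ggta1 by 2.78 ± 0.164 and Fkbp5 by 2.15 ± 0.156. The other 2 were S1pr3 (-2.74 ± 0.356) and Amigo2 (-3.14 ± 0.478). Both entered this fit only through astrocytes, in which they are high, so they had to be lower in microglia. With few or 0 microglia reads the size also depends on the pseudocount, and these 2 values are a description. With quantile normalization neither passed, at -1.5 for S1pr3 (adjusted p = 0.00154) and -1.77 for Amigo2 (adjusted p = 0.00188). Cell type cannot be told apart from purification, culture medium, donor age and brain region here.

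The responses of both cell types differed by an interaction test that 15.2% of genes passed, as did 3 of the 7 genes tested. Serpina3n had a log2 difference of -5.07 ± 0.392, microglia minus astrocytes (adjusted p = 1.54e-07), S1pr3 -2.81 ± 0.504 (adjusted p = 0.000435) and Fkbp5 -1.49 ± 0.221 (adjusted p = 8.32e-05). Of 17 microglia markers 2 were above 0 (median -1.70) and 7 passed as lower; of 12 astrocyte markers 11 were above 0 (median 0.78), and 4 passed as higher and 1 as lower. The median over all genes was 0.0040. Of 8 oligodendrocyte lineage markers 3 passed as higher and 1 as lower, and of 3 endothelial markers 1 as lower. Markers low in 1 cell type enter through the other, so these counts are a description, and the part of these markers was not tested. S1pr3 entered the fit only through astrocytes and was too low in microglia to be tested for LPS there, so its difference is a description. The treatments differ between the cell types, so cell type and agent cannot be told apart. The adjusted p of S1pr3 was 7.55e-06 to 0.00203 over the alternative settings, and S1pr3 no longer passed with edgeR or without any 1 of 9 libraries: WT quiescent microglia replicate 1 (-2.54) or 3 (-2.73), WT LPS microglia replicate 1 (-2.80), 2 (-2.79) or 3 (-2.84), WT quiescent astrocytes replicate 2 (-2.77), and WT activated astrocytes replicate 1 (-2.76), 2 (-2.83) or 3 (-2.84). Srgn had 1.30 ± 0.322 (adjusted p = 0.00479) and passed with edgeR (1.49, adjusted p = 0.000172), with DESeq2 (1.53, adjusted p = 4.07e-08) and without WT quiescent astrocytes replicate 1 (1.63); its adjusted p ran from 4.07e-08 to 0.0376. Amigo2, also too low in microglia to be tested there, had -1.34 ± 0.676 (adjusted p = 0.128) and passed only with a pseudocount of 5 (-1.75, adjusted p = 0.000715). Leaving out 1 library at a time, the Amigo2 difference ran from -1.95 to -0.86, the latter without WT quiescent microglia replicate 3.

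Over the 21 libraries the genes most like each of the 8 were found by Pearson correlation of log2 levels among 12380 genes, as a description in which the points share cell type and treatment. Serpina3n was most like Sox7 (0.98), Tslp (0.98) and Tm4sf1 (0.98), and S1pr3 most like Ptprn (0.99), Vcam1 (0.99) and Map1b (0.99). Amigo2 was most like Fzd1 (0.98), Rnd3 (0.98) and Gfra2 (0.98). Srgn was most like Csf2rb2, Slc11a1 and AI607873 (0.9971, 0.9969 and 0.9965), Fkbp5 most like Itga6, Ccni and Gna12 (0.98 each) and Ggta1 most like Abcc1, Orai2 and Atf6b (0.99 each). Aspg and Fbln5 were too low for this measure.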

How the data were processed

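Strand-specific polyA libraries were aligned by the authors to mm10 with STAR 2.7.3a, counted with RSEM and scaled with DESeq2 in R 3.6.1. The deposited signal is a normalised count per gene and library in 6 tables of 2 conditions each. The tables also hold the authors' mean, log2 fold change, its standard error, statistic, p and adjusted p, which were not used. Whole reads were recovered for 100.0% of values (tolerance 0.05 reads), and 15 repeat columns held the same reads. Replicate libraries differed by more than sampling noise (chi-square per degree of freedom 1.48 to 20.3 over 21 pairs).

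Each gene whose mean normalised count reached 10 was fitted with limma 3.58.1 (R 4.3.3, trend) on log2(value + 1), with Benjamini-Hochberg adjustment over all genes tested, within 1 table or, for joint fits, on recovered reads scaled by median of ratios. edgeR 4.0.16 and DESeq2 1.42.0 on recovered reads were alternatives; in WT astrocyte activation edgeR passed 1477 genes and DESeq2 1536. Levels used TMM scaling. Other alternatives were pseudocounts of 0.5 and 5, other filters, quantile and TMM scaling, an adjusted p under 0.05, a replicate block and leaving out each library. Code was tested on simulated data. Gene positions and exon lengths came from GENCODE M21 (GRCm38), where 23376 of 24411 symbols matched. Python 3.11.15, pandas 2.3.3 and matplotlib 3.10.9 were used for tables and figures.

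The named genes were the 8 genes, the other pan-reactive and neurotoxic genes in WT astrocyte activation, at most 3 passing genes with the largest change from each further list, the gene with the most RPM in a marker list, markers with 0 reads in every library (added later), and the 3 genes most correlated with each of the 8. Members and lists were chosen with earlier results of these data known.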

Additional observations from a re-analysis of the deposited data

Results flagged for a closer look

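For 4 genes the response of WT microglia to LPS and that of WT astrocytes to IL-1α, TNFα and C1q differed at an adjusted p under 0.05 in the limma interaction test. The log2 difference, microglia minus astrocytes, was -5.07 ± 0.392 (SE) for Serpina3n and -2.81 ± 0.504 for S1pr3, which entered the fit only through astrocytes and was too low in microglia to be tested for LPS there, so its value is a description. It was 1.30 ± 0.322 for Srgn (adjusted p = 0.00479, above the limit of 0.001 used for calls, but 0.000172 with edgeR and 4.07e-08 with DESeq2) and -1.49 ± 0.221 for Fkbp5.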

How the results depend on the processing

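Of 1052 log2 values of the 8 genes under the alternatives, 12 no longer passed, 5 newly passed and 34 changed sign, none of the last for a value that had passed; the others kept their direction and their side of the threshold. In all, 124 kept their sign but moved by over 1.5 times, 3 of them values that had passed. Of 336 counts of passing genes 321 stayed within 1.5 times. The 4 calls in WT astrocyte activation held under all 16 alternatives, with Serpina3n at 4.61 to 5.05 and S1pr3 at 3.30 to 4.03.

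The sign changed with edgeR for Srgn (WT astrocyte activation, -0.019), Fkbp5 (*SOD1* G93A against WT, activated astrocytes, -0.025), with quantile normalization for Srgn (*SOD1* G93A against WT, activated astrocytes, 0.032), Ggta1 (genotype difference in astrocyte activation, 0.014), Fbln5 (WT quiescent microglia against astrocytes, 1.02), with DESeq2 for Fkbp5 (*SOD1* G93A against WT, activated astrocytes, -0.013). It also changed with pseudocount 5 for S1pr3 (genotype difference in astrocyte activation, -0.053) and with TMM scaling for S1pr3 (genotype difference in astrocyte activation, -0.0021).

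Leaving out each library in turn, values that had not passed changed sign without the libraries in parentheses; here and above the cause was not tested. In *SOD1* G93A against WT, quiescent astrocytes, Fbln5 ran from -0.70 to 0.21 (*SOD1* G93A quiescent 3). In WT astrocyte activation, Srgn ran from -0.16 to 0.40 (WT quiescent 1). In *SOD1* G93A against WT, activated astrocytes, Srgn ran from -0.21 to 0.095 (WT activated 1, WT activated 2, *SOD1* G93A activated 2), Fkbp5 ran from -0.066 to 0.10 (WT activated 3, *SOD1* G93A activated 1, *SOD1* G93A activated 3). In WT microglia LPS response, Serpina3n ran from -0.49 to 0.027 (WT LPS microglia 2). In *SOD1* G93A against WT, LPS microglia, Serpina3n ran from -0.67 to 0.21 (*SOD1* G93A LPS microglia 3). In *SOD1* G93A astrocyte activation, Fbln5 ran from -0.77 to 0.13 (*SOD1* G93A quiescent 1, *SOD1* G93A quiescent 2, *SOD1* G93A activated 3). In genotype difference in astrocyte activation, Ggta1 ran from -0.40 to 0.055 (WT quiescent 1, *SOD1* G93A quiescent 1, *SOD1* G93A quiescent 2), S1pr3 ran from -0.36 to 0.37 (WT quiescent 3, *SOD1* G93A quiescent 2, WT activated 3, *SOD1* G93A activated 1), Amigo2 ran from -0.40 to 0.17 (WT quiescent 3, *SOD1* G93A quiescent 1), Fbln5 ran from -0.18 to 0.73 (*SOD1* G93A quiescent 3). In WT quiescent microglia against astrocytes, Fbln5 ran from -0.25 to 0.12 (WT quiescent microglia 1). In WT microglia response minus astrocyte response, Fbln5 ran from -0.072 to 0.50 (WT quiescent microglia 1, WT LPS microglia 3).

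At an adjusted p under 0.05 the genes passing by limma were 4 for *SOD1* G93A against WT quiescent astrocytes, 123 for activated astrocytes, 1 for LPS microglia, 28 for the genotype difference in activation and 2855 for microglia response minus astrocyte response. DESeq2 gave 7, 3 and 22 for quiescent astrocytes, LPS microglia and the genotype difference, for which edgeR gave 4 and a pseudocount of 5 gave 3. Leaving out libraries, the genotype difference ran from 0 to 6 genes, with 6 without WT quiescent astrocytes replicate 1 and 1 without replicate 3. For WT quiescent microglia against astrocytes, requiring 10 in every library left 3616 genes and 3 of the 8, since fewer genes were tested; quantile normalization also left 3 of the 8, and TMM scaling moved the median of all genes by 0.13.

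The replicate number as a block changed no call of the 8 genes: 0, 1423, 100, 2201 and 0 genes passed in the 5 comparisons of 2 groups and 1576, 0, 5848 and 1854 in the joint fits. Correlations of same-numbered libraries ran from -0.44 to 0.13, and of differently numbered ones up to 0.52; the reported fits use no pairing. Depth limits Aspg, Fbln5, and S1pr3 and Amigo2 in microglia, which had few or 0 reads.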
